A study of Mus musculus with 24 samples.

Results

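The transcription factors SOX9, SOX5 and SOX6 and the cartilage matrix genes tied to them were followed in mouse limb buds that had lost the U11 small nuclear RNA. The set held 10 genes, taken by symbol from 38019 gene symbols: Sox9, Sox5 and Sox6; the collagen genes Col2a1, Col9a1, Col9a2 and Col9a3; Acan and Hapln1, for aggrecan and its link protein; and the ubiquitin ligase gene Wwp2. Total RNA from forelimb buds (FL) and hindlimb buds (HL) was sequenced on embryonic days E11.5 and E10.5, with 3 libraries in each of 8 groups. Mutant libraries came from C57/Bl6 embryos of genotype U11flx/flx::Prrx1-Cre+, and wild-type (WT) libraries from U11flx/flx::Prrx1-Cre- embryos of the same strain, so the WT buds also carried both floxed alleles. Prrx1-Cre is driven in limb mesenchyme; blood, vessel, ectoderm and muscle precursor cells of a mutant bud are not expected to lose U11. The sources used here do not say whether a library was 1 embryo or a pool, so p-values measure only the spread between these samples, which may be technical.

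SOX9 is the factor that commits limb mesenchyme to cartilage, and SOX5 and SOX6, which lack an activation domain of their own, act with it on the enhancers of cartilage matrix genes. Type II collagen forms the main fibrils of cartilage, type IX collagen is a trimer of the products of Col9a1, Col9a2 and Col9a3 on the surface of those fibrils, and the link protein holds aggrecan to hyaluronan. WWP2 is known as a partner of SOX9, and the gene hosts the cartilage microRNA miR-140. U11 belongs to the minor spliceosome, which removes a small class of introns.

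Values are TPM (transcript abundances scaled to one total in every library) rescaled so that the median log2 level of 3518 genes at 5 TPM or more in every library was equal across the 24 libraries, and are called rescaled TPM. Fold changes are differences of log2(rescaled TPM + 1), given with their standard error, and understate the change of low genes. Calls are limma tests with Benjamini-Hochberg adjustment over all genes tested, at an adjusted p under 0.05. The deposited values hold no counts, so depth is unknown and no counting interval can be given.

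The targeted RNA, Rnu11, ranged from 337 to 420 rescaled TPM in the mutant and from 922 to 2087 in the WT E11.5 HL, and from 135 to 237 in the mutant and from 1253 to 1344 in the WT E11.5 FL. At E10.5 it ranged from 164 to 267 in the mutant and from 427 to 716 in the WT HL, and from 94.2 to 482 in the mutant and from 251 to 1063 in the WT FL, where the ranges overlapped: WT FL replicate 1, at 251, lay below mutant FL replicate 3, at 482. All 14 limb mesenchyme markers were detected in every group, with sums of 103 to 271 rescaled TPM per library. One library stood apart: E10.5 mutant FL replicate 3 had axial and somite markers summing to 21.3, against at most 11.4 elsewhere, neural crest and Schwann cell markers summing to 14.7, against at most 6.35 elsewhere, and the lowest limb mesenchyme sum, 103. It also held the hindlimb gene Pitx1 at 1.53 rescaled TPM. Leaving it out changed no call among the 10 genes, and values without it are given beside the results. The 6 libraries with Xist at 5 TPM or more were all mutant. In bulk tissue, fewer cells of a type and less RNA per cell cannot be told apart.

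The 10 genes spanned a wide range of levels. Over the 24 libraries the median was 7.71 rescaled TPM for Col2a1, 6.42 for Col9a1, 5.80 for Hapln1, 5.21 for Wwp2, 4.27 for Sox6, 4.18 for Sox5 and 1.85 for Sox9. Col9a3 and Col9a2 had medians of 0.373 and 0.252 and reached 1 rescaled TPM in 8 libraries each, all at E11.5. Acan never exceeded 0.202 and was below the level tested in any comparison, so aggrecan transcripts were at or near 0 in all 24 libraries. The plot of levels by library shows 3 shapes. The collagen and SOX genes had higher means at E11.5 within each limb and genotype. For Sox6 in mutant buds, however, the E11.5 mean was only 1.06-fold the E10.5 mean in HL and 1.13-fold in FL. Hapln1 was lower at E11.5, and Wwp2 varied by at most 1.76-fold between group means.

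**Figure D1:**
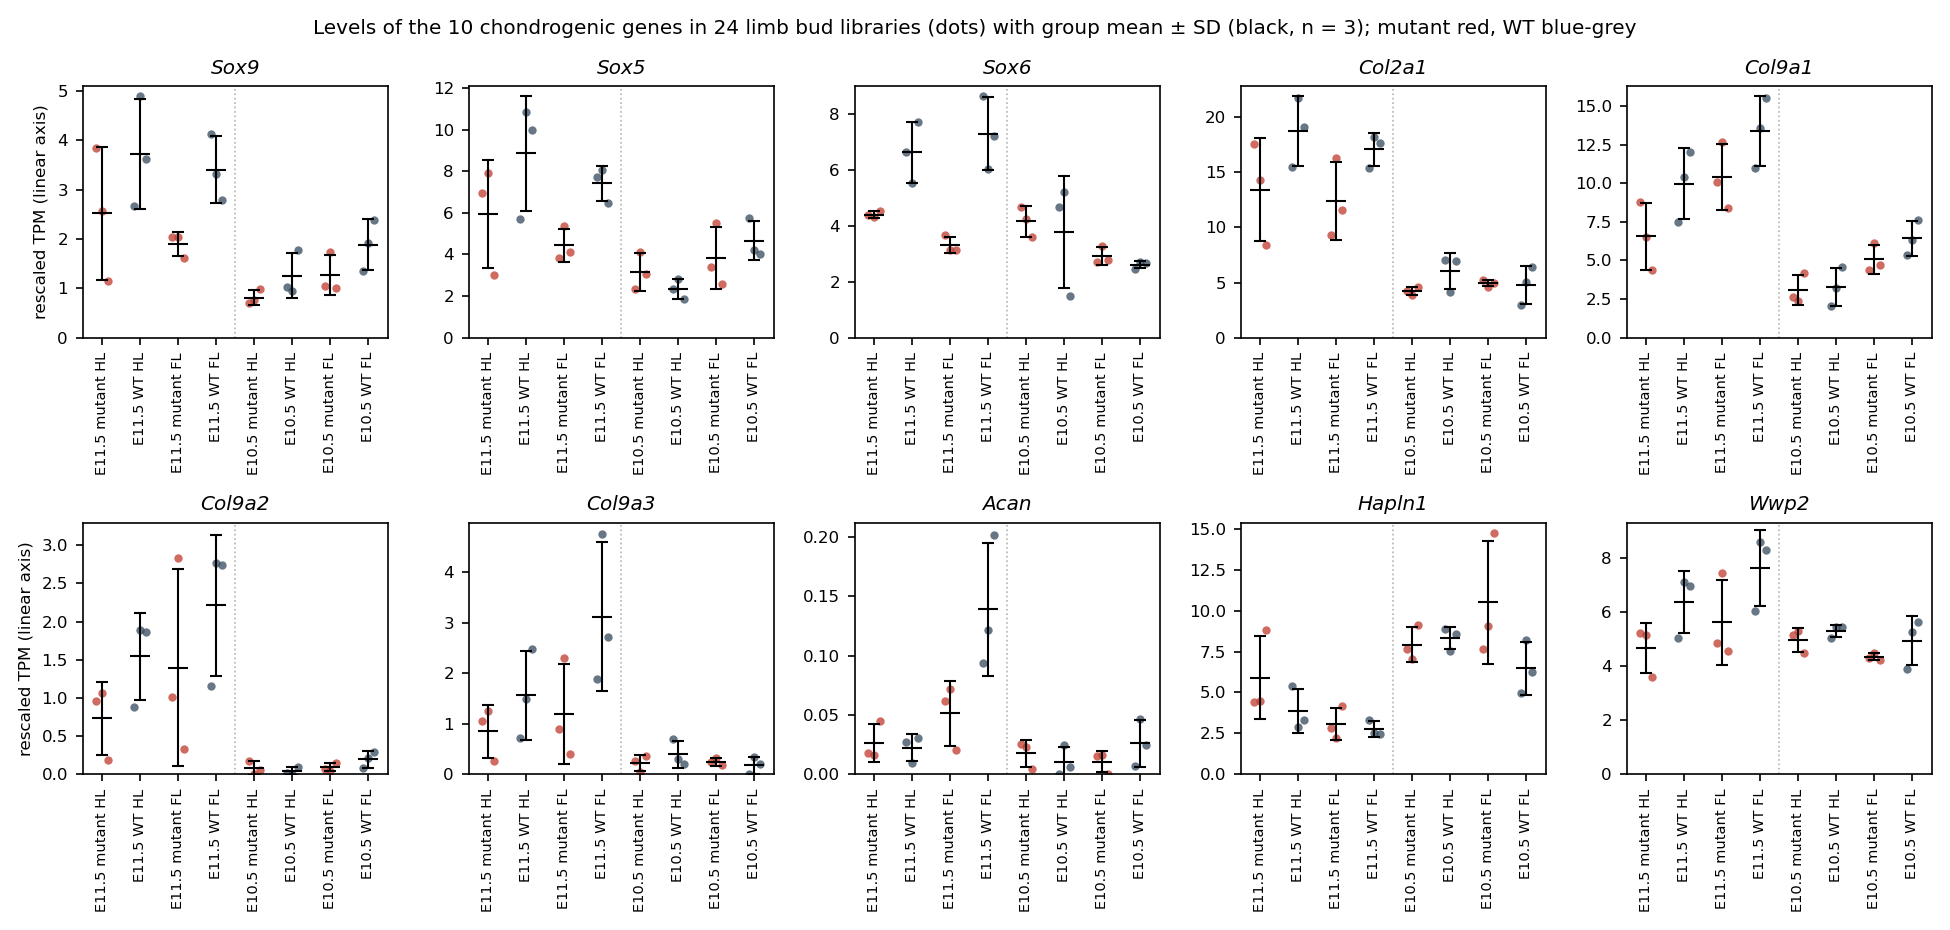
Rescaled TPM (linear axes, 1 panel per gene) of the 10 genes in each of the 24 libraries, with group mean and SD (black, n = 3), mutant in red and WT in blue-grey. Sox6 lies between 5.53 and 8.65 in the 6 WT libraries of E11.5 and between 3.13 and 4.53 in the 6 mutant ones, and Hapln1 is the gene whose E10.5 groups stand highest.

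Sox6 (minus strand of chr7:115470872-116038796, GRCm38, the sequence of mm10) was the one gene of the set called between the genotypes. In E11.5 FL it measured 3.65, 3.15 and 3.13 rescaled TPM in the mutant buds and 8.65, 6.03 and 7.23 in the WT buds. In E11.5 HL it measured 4.38, 4.30 and 4.53 in the mutant buds and 6.65, 5.53 and 7.70 in the WT buds. Every mutant library of that stage lay below every WT library of the same limb. In FL, Sox6 fell by 0.93 ± 0.13 (adjusted p = 0.0059 by limma, n = 3 each), to 45.4% of the WT mean; the call was kept with each of the 6 libraries left out in turn, at adjusted p-values up to 0.041. In HL the log2 fold change was -0.49 ± 0.13, and it did not pass (adjusted p = 0.75). The test of the difference between the limbs, HL minus FL, gave 0.45 ± 0.18 (adjusted p = 0.35), so the limbs were not shown to differ; none of the 9 genes tested passed there (0.0175% of all genes did), and Sox6 was the one at an unadjusted p under 0.05 (13.4% of all genes). The FL value depended on the scale: on the values as deposited, where the median of all genes was shifted by 0.39 in this comparison, it was -0.50 (adjusted p = 0.056).

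At E10.5 Sox6 showed no such gap. It measured 4.67, 4.23 and 3.58 rescaled TPM in mutant HL and 4.66, 5.21 and 1.48 in WT HL. In FL it measured 2.71, 3.27 and 2.78 in the mutant and 2.46, 2.71 and 2.66 in the WT. The genotypes overlapped in both limbs, and the WT HL library at 1.48 was the lowest of all 24. The genotype difference at E11.5 minus that at E10.5 was -0.70 ± 0.32 in HL (adjusted p = 1) and -1.05 ± 0.32 in FL (adjusted p = 0.21), so a change of the mutant effect between the stages did not pass in either limb.

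The 250 bases before 2 of the 6 Sox6 start sites and before the 1 listed Sox5 start site are shown because both factors were lower in mutant E11.5 buds in every FL library and because SOX proteins bind short motifs of 6 letters. RefSeq sequences (GRCm38.p6) were at hand for 13 promoters of 7 of the 10 genes, and none was at hand for Sox9, Col2a1 or Col9a3. The letters ACAAAG (on the other strand CTTTGT) and the letters ACAATG (on the other strand CATTGT) were searched on both strands and capitals mark each match; no match overlapped another. Hapln1, whose level went the other way between the stages, is shown beside them. Each line below runs 5′ to 3′ on the strand of the gene and ends next to the start site.
Sox6, chr7:116038745-116038994, minus strand: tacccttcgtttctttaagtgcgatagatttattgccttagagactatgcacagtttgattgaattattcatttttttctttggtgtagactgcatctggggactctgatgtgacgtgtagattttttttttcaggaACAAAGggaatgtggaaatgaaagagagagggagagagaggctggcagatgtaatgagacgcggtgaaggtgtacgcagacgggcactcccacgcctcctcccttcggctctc
Sox6, chr7:115995087-115995336, minus strand: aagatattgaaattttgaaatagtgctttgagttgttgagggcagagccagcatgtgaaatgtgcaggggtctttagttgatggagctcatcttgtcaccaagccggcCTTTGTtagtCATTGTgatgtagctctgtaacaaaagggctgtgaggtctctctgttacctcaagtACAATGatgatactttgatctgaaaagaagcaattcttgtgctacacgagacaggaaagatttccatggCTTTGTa
Sox5, chr6:143947107-143947356, minus strand: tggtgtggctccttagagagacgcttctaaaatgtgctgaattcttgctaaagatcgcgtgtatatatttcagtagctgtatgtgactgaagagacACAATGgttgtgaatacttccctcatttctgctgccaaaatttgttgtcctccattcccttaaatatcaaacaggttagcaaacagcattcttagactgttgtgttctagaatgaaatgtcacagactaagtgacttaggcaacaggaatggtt
Hapln1, chr13:89540386-89540635, plus strand: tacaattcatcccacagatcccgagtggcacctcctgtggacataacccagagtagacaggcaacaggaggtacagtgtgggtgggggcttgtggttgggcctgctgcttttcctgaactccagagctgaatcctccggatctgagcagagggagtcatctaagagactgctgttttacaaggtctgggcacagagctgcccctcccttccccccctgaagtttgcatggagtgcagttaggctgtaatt

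A match was present in 5 of the 6 Sox6 promoters, among them 1 match in the first sequence and 4 in the second, and in the 1 listed Sox5 promoter. That Sox5 sequence lies inside the gene, whose 5′ end is at chr6:144781977, so the promoter at the 5′ end of Sox5 was not searched. Which start sites these buds used cannot be told from 1 value per gene. The second sequence was the Sox6 promoter with the most matches, and the Sox6 promoter without a match is not shown. None was present in those of Col9a1, Col9a2, Acan, Wwp2 or Hapln1. In all, 6 of the 13 promoters held one, against 25.2% of 32851 mouse promoters of the same length. The 6 letters are short, the Sox6 promoters belong to 1 gene, and a match describes the sequence alone.

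Sox5 (minus strand of chr6:143828425-144781977) encodes the close relative of SOX6. In E11.5 HL it measured 6.97, 7.91 and 3.01 rescaled TPM in mutant buds and 5.71, 10.9 and 9.995 in WT buds. In E11.5 FL it measured 3.85, 5.35 and 4.12 in mutant buds and 7.71, 8.06 and 6.47 in WT buds. The genotypes overlapped in HL and not in FL. The log2 fold changes were -0.54 ± 0.28 in HL (adjusted p = 0.75) and -0.63 ± 0.28 in FL (adjusted p = 0.21), and neither passed. On the values as deposited the FL value was -0.18.

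Sox9 (plus strand of chr11:112782224-112787760), the gene of the commitment factor, measured 3.84, 2.57 and 1.15 rescaled TPM in mutant and 2.67, 4.89 and 3.63 in WT E11.5 HL. In E11.5 FL it measured 2.05, 2.04 and 1.61 in mutant and 4.12, 3.32 and 2.78 in WT buds. Here too the genotypes were separate in FL and overlapped in HL. The mutant FL mean was 55.7% of the WT mean. The log2 fold changes, -0.48 ± 0.26 in HL and -0.60 ± 0.26 in FL, did not pass (adjusted p = 0.75 in HL and 0.20 in FL), and the FL value was -0.22 on the values as deposited.

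The collagen genes and Wwp2 were lower in mutant E11.5 buds by value, and none passed. Col2a1 (minus strand of chr15:97975602-98004695), for type II collagen, measured 17.6, 14.3 and 8.41 rescaled TPM in mutant and 15.5, 21.7 and 19.1 in WT E11.5 HL. In E11.5 FL it measured 9.32, 16.3 and 11.6 in mutant and 15.4, 18.3 and 17.7 in WT buds. The genotypes overlapped in both limbs, with log2 fold changes of -0.50 ± 0.24 in HL and -0.46 ± 0.24 in FL (adjusted p = 0.75 in HL and 0.27 in FL). Col9a1, for the first chain of type IX collagen, differed by -0.56 ± 0.23 in HL and -0.34 ± 0.23 in FL, and by -0.21 in FL without E11.5 mutant FL replicate 3. Without mutant FL replicate 1 the Col2a1 value in FL was -0.29. Col9a3, for the third chain, averaged 1.20 ± 0.99 in mutant and 3.12 ± 1.5 in WT E11.5 FL (SD, n = 3 each), a log2 fold change of -0.94 ± 0.37 (adjusted p = 0.16) with overlapping libraries. Wwp2 differed by -0.38 ± 0.19 in HL and -0.40 ± 0.19 in FL.

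Hapln1 was higher in mutant E11.5 buds by value. It measured 4.40, 4.46 and 8.82 rescaled TPM in mutant and 5.37, 2.90 and 3.29 in WT E11.5 HL, and averaged 3.06 ± 0.99 in mutant and 2.76 ± 0.48 in WT E11.5 FL (SD, n = 3 each). The log2 fold changes were 0.48 ± 0.26 in HL and 0.09 ± 0.26 in FL, neither passing. The FL value took the other sign, -0.10, without the libraries with high Xist, an omission that in E11.5 FL removed mutant replicate 3.

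Of the 9 genes tested at E11.5, limma called 1 lower in mutant FL (1.21% of all 11398 genes tested were called lower) and none in HL (0.0175% of all genes were called). At an unadjusted p under 0.05 the count was 2 lower in HL (Col9a1 and Sox6; 6.19% of all genes in either direction) and 4 lower in FL (Sox5, Sox6, Sox9 and Col9a3; 22.7%), and none higher in either limb. The median log2 fold change of the 9 genes was -0.49 in HL and -0.52 in FL, beside a median over all genes of -0.04 in HL and -0.03 in FL, with 8 of the 9 below 0 in each limb. The groups did not overlap, with the mutant lower, for 1 gene in HL, where 8.52% of all genes did so, and for 3 genes in FL, where 14.4% did so. On the values as deposited, Col2a1, Col9a1 and Wwp2 were above 0 in FL, at 0.03, 0.14 and 0.06, so the direction of these 3 genes in FL depended on the scale, while Col9a2, Col9a3 and Hapln1 kept theirs, at -0.19, -0.59 and 0.46. The median of the 9 genes in FL was -0.18 on that scale. Over all genes the FL calls were 51 higher and 138 lower on the rescaled values and 3691 higher and 42 lower on the deposited ones. In HL the 9 genes kept their sign on both scales.

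**Figure D2:**
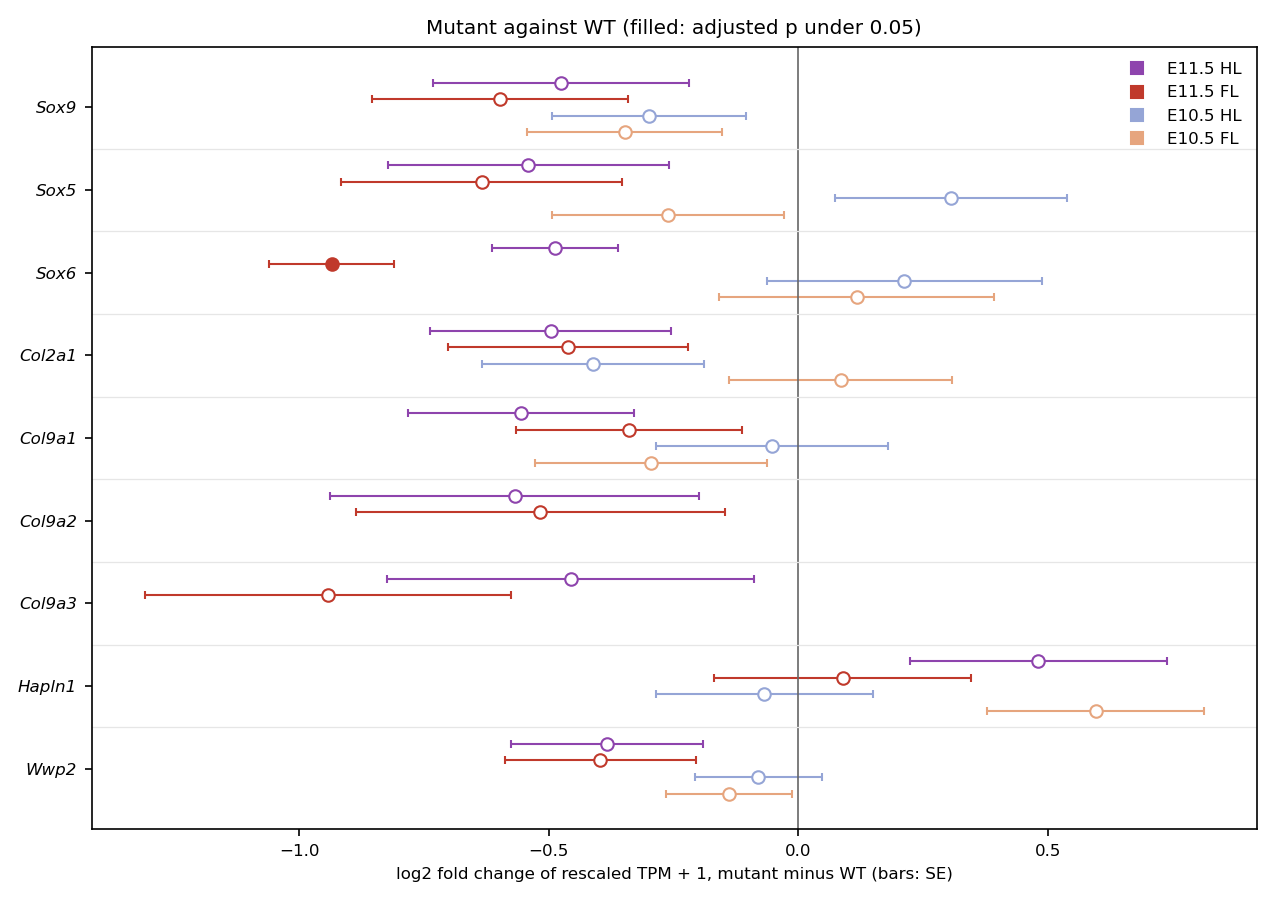
Log2 fold change of rescaled TPM + 1, mutant minus WT (horizontal axis), with standard error, for the 9 genes tested, in the limbs and stages given by colour; filled points passed an adjusted p of 0.05. Sox6 in E11.5 FL, at -0.93, is the single filled point, and Col9a2 and Col9a3 have no E10.5 value because they were below the level tested.

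**Figure D3:**
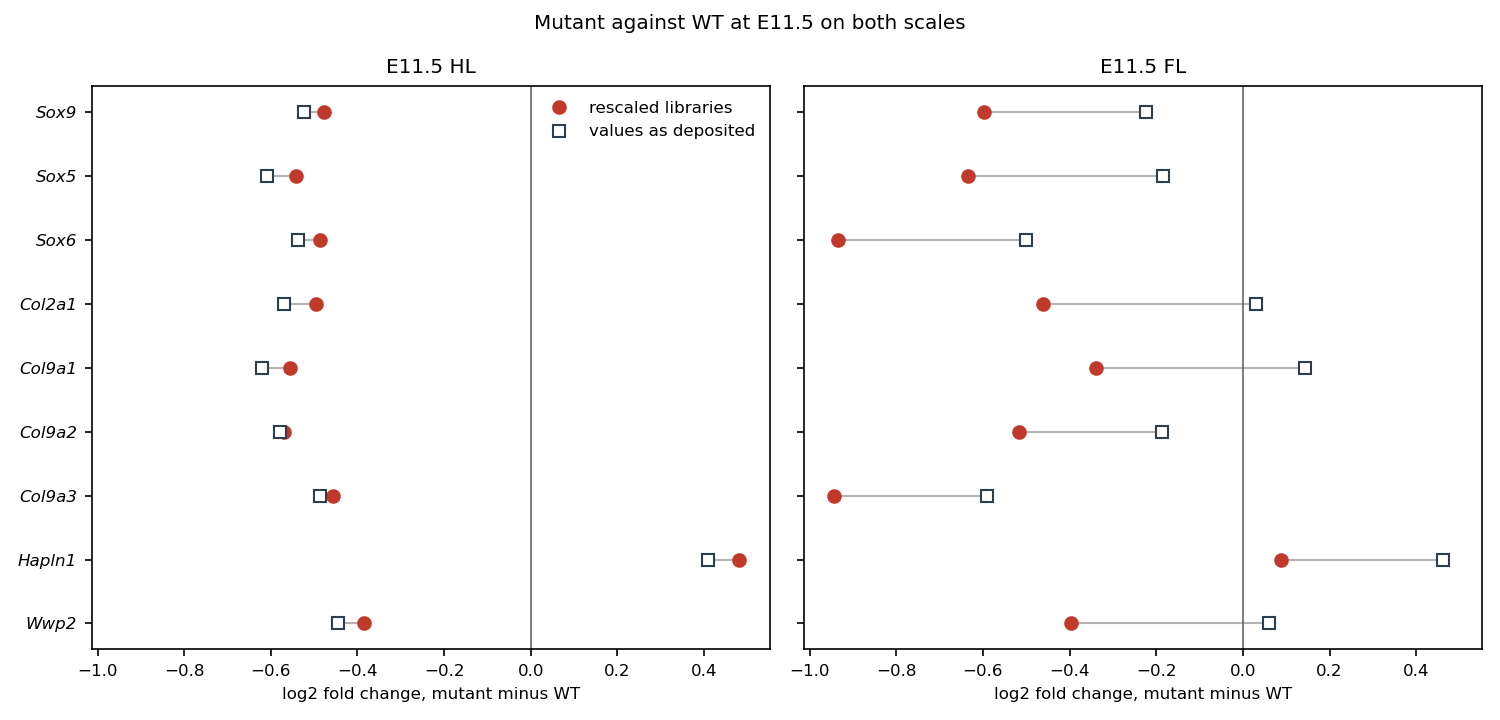
Log2 fold change, mutant minus WT, at E11.5 in HL and FL (panels) on rescaled libraries (red circles) and on values as deposited (open squares). In HL every gene stays on its side of 0, whereas in FL the squares lie to the right of the circles and Col2a1, Col9a1 and Wwp2 cross 0.

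Several of the E11.5 HL values moved with a single library. E11.5 mutant HL replicate 3 was the lowest of its group for 7 of the 10 genes (Sox9, Sox5, Col2a1, Col9a1, Col9a2, Col9a3 and Wwp2) and the highest for Sox6, Acan and Hapln1. Without it the mutant-to-WT log2 fold change was -0.16 for Sox9, -0.18 for Sox5, -0.22 for Col2a1, 0.20 for Hapln1 and -0.50 for Sox6. For the others it was -0.34 for Col9a1, -0.31 for Col9a2, -0.20 for Col9a3 and -0.24 for Wwp2, and the median of the 9 genes was -0.22, against -0.49 with all libraries. Its limb mesenchyme marker sum, 190, was the lowest of the 12 libraries of that stage, which otherwise ran from 231 to 271. Its endothelial sum, 44.3, and its surface ectoderm sum, 118, were the highest of those 12. E11.5 mutant HL replicate 3 was also the library that the omission of high Xist removed from E11.5 HL. That omission therefore gave the same HL median of the 9 genes, -0.22, and is not a second check. The part of these marker levels and of Xist in the result was not tested. E11.5 WT HL replicate 1 was likewise the lowest of its group for the same 7 genes and the highest for Hapln1. In E11.5 FL, mutant replicate 3 was the lowest of its group for 7 genes (Sox9, Sox6, Col9a1, Col9a2, Col9a3, Acan and Wwp2) and the highest for Hapln1. Without it the FL median of the 9 genes was -0.43, against -0.52 with all libraries, and the Sox6 call was kept.

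At E10.5, 7 of the 10 genes were tested between the genotypes and none was called in HL (0.00882% of 11336 genes were called) or in FL (0.0265%). At an unadjusted p under 0.05 limma gave none in HL (1.9% of all genes) and Hapln1, higher in the mutant, in FL (5.16%). The difference of the mutant effect between the limbs, HL minus FL, passed for none of the 7 genes either (0% of all genes passed), nor at an unadjusted p under 0.05. Hapln1 measured 7.67, 9.08 and 14.8 rescaled TPM in mutant E10.5 FL and 4.99, 8.20 and 6.24 in WT E10.5 FL, with overlap, and a log2 fold change of 0.60 ± 0.22 (adjusted p = 0.89). E10.5 WT FL replicate 1 was the lowest of its group for 9 of the 10 genes, and without it the Col2a1 value of 0.09 ± 0.22 became -0.17. For Hapln1, without mutant FL replicate 3, the library that stood apart and the one at 14.8, the value was 0.34. Erythroid markers summed to 4169 to 5060 in mutant and 1947 to 2662 in WT E10.5 FL; the part of this in the E10.5 FL values was not tested.

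Between the stages, Col2a1 and Col9a1 rose in all 4 groups of buds on the rescaled values; on the values as deposited Col2a1 rose in 3 and Col9a1 in 2. The comparison of E11.5 with E10.5 carries the limit that the E10.5 reads alone were trimmed by 3 bases, so stage and trimming cannot be told apart. Col2a1 averaged 13.4 ± 4.7 rescaled TPM in mutant HL at E11.5 and 4.19 ± 0.36 at E10.5, and 18.8 ± 3.1 in WT HL at E11.5 and 6.03 ± 1.6 at E10.5 (SD, n = 3 each). In FL it averaged 12.4 ± 3.6 in mutant buds at E11.5 and 4.95 ± 0.32 at E10.5, and 17.1 ± 1.5 in WT buds at E11.5 and 4.79 ± 1.7 at E10.5. No E11.5 library overlapped an E10.5 library of its group. Col2a1 rose by 1.42 ± 0.25 in mutant HL (adjusted p = 0.00031) and 1.51 ± 0.25 in WT HL (adjusted p = 0.00016), and by 1.14 ± 0.25 in mutant FL (adjusted p = 0.0020) and 1.69 ± 0.25 in WT FL (adjusted p = 8.3e-05). It passed in each group with any library left out. As deposited, its value in mutant HL was 0.67 and did not pass (adjusted p = 0.090), and it passed in the other 3 groups.

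Col9a1 (plus strand of chr1:24177610-24252684) also rose in all 4 groups on the rescaled values. It measured 8.76, 6.52 and 4.41 rescaled TPM at E11.5 and 2.64, 2.38 and 4.19 at E10.5 in mutant HL. In mutant FL it measured 10.1, 12.7 and 8.41 at E11.5 and 4.37, 6.11 and 4.70 at E10.5. The rise was 0.88 ± 0.24 in mutant HL, 1.38 ± 0.24 in WT HL, 0.90 ± 0.24 in mutant FL and 0.95 ± 0.24 in WT FL. The calls were lost on the values as deposited in mutant HL, at 0.19 (adjusted p = 0.58), and in WT FL, at 0.51 (adjusted p = 0.23). Without E11.5 mutant HL replicate 1 the mutant HL value was 0.67 and did not pass (adjusted p = 0.059).

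The other type IX collagen genes were near 0 at E10.5. Col9a2 (plus strand of chr4:121039385-121055322) ran from 0 to 0.288 rescaled TPM at E10.5 over all groups. At E11.5 it measured 0.957, 1.06 and 0.183 in mutant HL and 0.882, 1.89 and 1.86 in WT HL, and 1.02, 2.84 and 0.335 in mutant FL and 1.15, 2.76 and 2.74 in WT FL. Col9a3 (plus strand of chr2:180597790-180622189) ran up to 0.692 at E10.5 and from 0.256 to 4.75 at E11.5. Both genes passed the filter on low values through their E11.5 libraries, so a rise was built into their being tested, and they are left out of the counts of genes that rose or fell with stage given for the set below. The Col9a3 gene overlaps an exon of Tcfl5 on the opposite strand; the library kit keeps strand, but whether it was used in quantification is not given in the sources used here.

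Hapln1 (plus strand of chr13:89539796-89611652), the link protein gene, fell in 3 of the 4 groups. It measured 2.82, 2.21 and 4.15 rescaled TPM in mutant FL at E11.5, against 7.67, 9.08 and 14.8 at E10.5. In WT FL it measured 3.31, 2.49 and 2.48 at E11.5, against 4.99, 8.20 and 6.24 at E10.5. The stages did not overlap in either. Hapln1 fell by 0.98 ± 0.25 in WT HL (adjusted p = 0.0050), by 1.48 ± 0.25 in mutant FL (adjusted p = 0.00040) and by 0.98 ± 0.25 in WT FL (adjusted p = 0.0056); without E10.5 mutant FL replicate 3 the mutant FL value was -1.23. In mutant HL the value was -0.43 ± 0.25 and did not pass (adjusted p = 0.19), but it was -0.71 without E11.5 mutant HL replicate 3 and passed (adjusted p = 0.034). Within a library, Hapln1 over Col2a1 had a median of 0.313 at E11.5 and 1.83 at E10.5 in mutant HL, 0.172 at E11.5 and 1.27 at E10.5 in WT HL, 0.303 at E11.5 and 1.96 at E10.5 in mutant FL, and 0.140 at E11.5 and 1.63 at E10.5 in WT FL. This ratio does not depend on how libraries are scaled, and its E11.5 and E10.5 ranges did not overlap in any of the 4 groups.

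The SOX genes passed between the stages in some groups of buds. Sox6 rose by 0.77 ± 0.22 in WT HL (adjusted p = 0.010) and by 1.19 ± 0.22 in WT FL (adjusted p = 0.00061). In mutant buds it changed by 0.07 ± 0.22 in HL and 0.14 ± 0.22 in FL, and neither passed (adjusted p = 0.82 in HL and 0.66 in FL). The WT HL value was 0.35 without the E10.5 WT HL library at 1.48 and still passed (adjusted p = 0.042). Both Sox6 calls were lost on the values as deposited, at 0.24 in WT HL (adjusted p = 0.57) and 0.79 in WT FL (adjusted p = 0.080). Sox5 rose by 1.53 ± 0.27 in WT HL (adjusted p = 0.00036), and the values that did not pass were 0.68 ± 0.27 in mutant HL (adjusted p = 0.059), 0.21 ± 0.27 in mutant FL (adjusted p = 0.58) and 0.58 ± 0.27 in WT FL (adjusted p = 0.098). Sox9 rose by 0.88 ± 0.24 in mutant HL (adjusted p = 0.0076), by 1.06 ± 0.24 in WT HL (adjusted p = 0.0018) and by 0.62 ± 0.24 in WT FL (adjusted p = 0.045), with 0.37 ± 0.24 in mutant FL (adjusted p = 0.24). The mutant HL call for Sox9 was lost without E11.5 replicate 1 (0.62, adjusted p = 0.059), and the WT FL call was lost without any of E10.5 replicates 1 and 2 and E11.5 replicates 1 and 2 (adjusted p up to 0.16). All 3 Sox9 calls were lost on the values as deposited, at 0.40 in mutant HL, 0.64 in WT HL and 0.27 in WT FL, while Sox5 in WT HL still passed, at 1.02 (adjusted p = 0.028). The Sox5 value in mutant HL was -0.02 on that scale. Without E10.5 mutant FL replicate 3 the mutant FL values were 1.14 for Col2a1, 0.86 for Col9a1, 0.11 for Sox6, 0.01 for Sox5, 0.29 for Sox9 and 0.27 for Wwp2.

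These differences between the genotypes are not calls in themselves. The change of the mutant effect with stage passed for none of the 9 genes in HL (0.00825% of 12118 genes passed) or in FL (0.066%). Of the 7 genes kept at both stages, limma gave Sox5 and Sox6 in HL (2.53% of all genes) and Sox6 in FL (12.7%) at an unadjusted p under 0.05. Col9a3 also reached that level in FL. It was near 0 in both genotypes at E10.5, so its value, -1.03, largely repeats its E11.5 genotype difference, -0.94. For Sox5 in HL the value was -0.85 ± 0.39 (adjusted p = 1), and for Col2a1 it was -0.09 ± 0.35 in HL and -0.55 ± 0.35 in FL. Without E10.5 mutant FL replicate 3 the FL values were -1.08 for Sox6, -1.07 for Col9a3 and -0.55 for Col2a1.

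Wwp2 (plus strand of chr8:107436365-107558595) varied least between groups. It averaged 5.62 ± 1.6 rescaled TPM at E11.5 and 4.35 ± 0.14 at E10.5 in mutant FL, and 7.65 ± 1.4 at E11.5 and 4.94 ± 0.91 at E10.5 in WT FL (SD, n = 3 each). It rose by 0.54 ± 0.17 in WT FL (adjusted p = 0.015), a call lost without E10.5 replicate 1, E11.5 replicate 2 or E11.5 replicate 3 (adjusted p up to 0.078) and on the values as deposited (0.12, adjusted p = 0.81), and did not pass in the other 3 groups. Mir140, inside an exon of the Wwp2 annotation, was listed at 0 in all 24 libraries, which were not made from small RNA. The pseudogene Rps26-ps1, at up to 375 rescaled TPM, lies within Wwp2 on the opposite strand and overlaps none of its exons.

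Of the 7 genes kept at both stages, 3 rose in mutant HL (18.5% of 12118 genes rose), 5 rose in WT HL (23.8%), 2 rose in mutant FL (18.7%) and 5 rose in WT FL (23.3%). Hapln1 was the 1 gene that fell, in WT HL (18.2% of genes fell), mutant FL (17.6%) and WT FL (16.8%), with none falling in mutant HL. The median change of the 7 was 0.68 in mutant HL (0.03 over all genes), 1.06 in WT HL (0.07), 0.28 in mutant FL (0.02) and 0.62 in WT FL (0.07). On the values as deposited the median over all genes was -0.61 in mutant HL, -0.42 in WT HL, 0.18 in mutant FL and -0.27 in WT FL. The calls over all genes on that scale were 169 higher and 6140 lower in mutant HL, 270 higher and 4011 lower in WT HL, 820 higher and 200 lower in mutant FL, and 223 higher and 2500 lower in WT FL. On the rescaled values they were 2241 higher and 2153 lower in mutant HL, 2888 higher and 2207 lower in WT HL, 2267 higher and 2136 lower in mutant FL, and 2821 higher and 2030 lower in WT FL. On the values as deposited the calls among the 7 genes were Hapln1 and Wwp2, both lower, in mutant HL (-1.17, adjusted p = 0.0032, for Hapln1 and -0.81, adjusted p = 0.020, for Wwp2), and none of the 3 genes called there on the rescaled values was kept. On that scale the values in mutant HL were -0.64 for Sox6 and -0.02 for Sox5, and that of Wwp2 in WT HL was -0.34, all opposite in sign to the rescaled ones. The values of Col2a1 and Hapln1 kept their signs in all 4 groups.

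**Figure D4:**
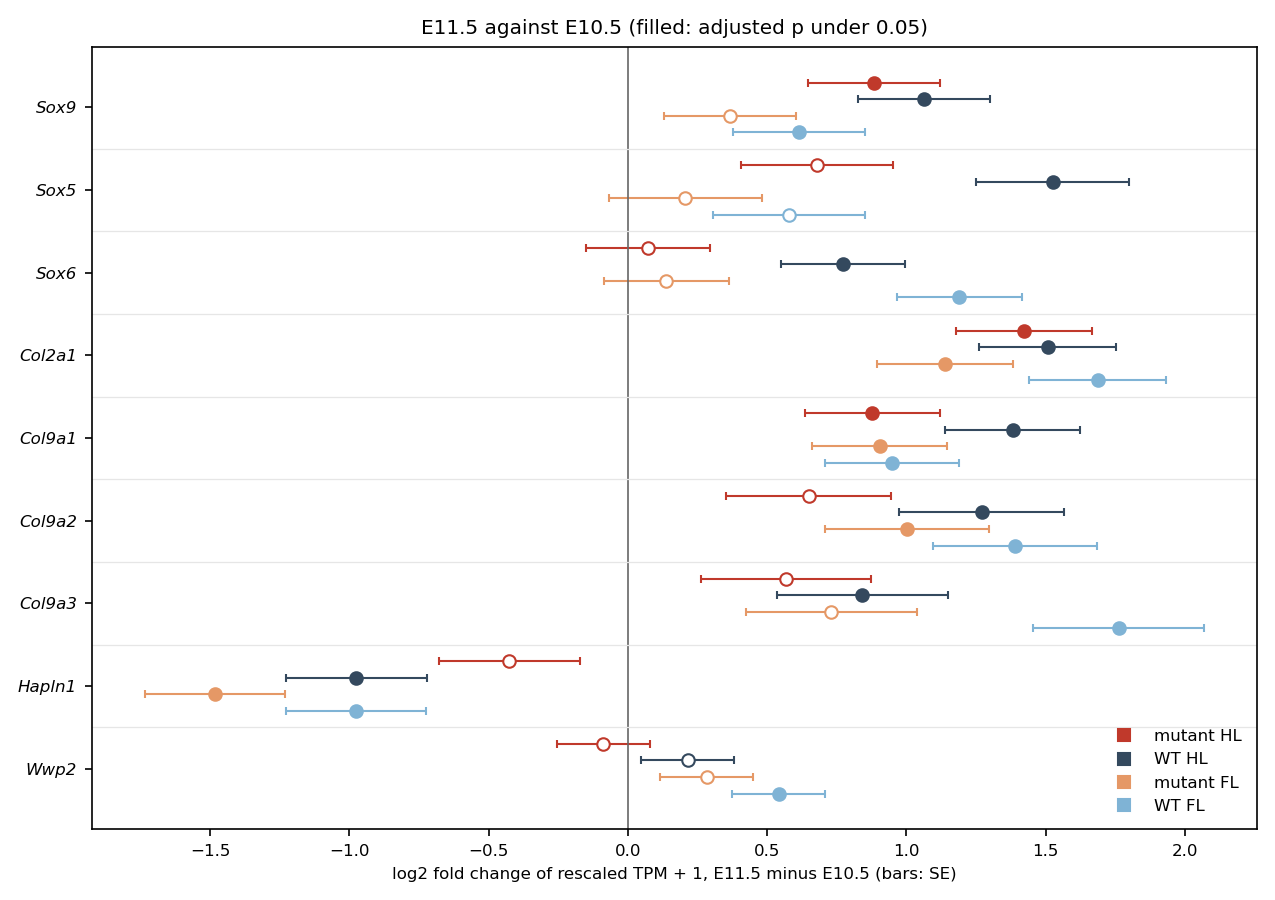
Log2 fold change of rescaled TPM + 1, E11.5 minus E10.5 (horizontal axis), with standard error, for the 9 genes tested, in mutant and WT HL and FL (colours); filled points passed an adjusted p of 0.05. Col2a1 and Col9a1 are filled in all 4 groups, Sox6 in the WT groups, and Hapln1 lies left of 0 throughout.

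Between the limbs, no gene of the set passed in any genotype or stage. In E11.5 mutant buds 0.377% of all genes were called, in E11.5 WT buds 0.149%, in E10.5 mutant buds 0.0618% and in E10.5 WT buds 0.124%. At an unadjusted p under 0.05 limma gave Col9a1, Hapln1 and Sox6 in E11.5 mutant buds (16.2% of all genes), none in E11.5 WT buds (6.97%), Col9a1 in E10.5 mutant buds (6.69%), and Col9a1 and Sox5 in E10.5 WT buds (9.35%). Without overlap of the limbs, Sox6 and Hapln1 were higher in HL in E11.5 mutant buds (8.97% of all genes) and Sox6 in E10.5 mutant buds (7.41%). Col9a1 was lower in HL by value in all 4 groups. It measured 2.64, 2.38 and 4.19 rescaled TPM in HL and 4.37, 6.11 and 4.70 in FL of E10.5 mutant buds, and 2.05, 3.22 and 4.55 in HL and 5.37, 6.32 and 7.63 in FL of E10.5 WT buds. The limbs did not overlap in either genotype. Lower in HL without overlap were 3 of the 7 genes in E10.5 mutant buds (Col9a1, Col2a1 and Sox9; 9.74% of all genes) and 2 in E10.5 WT buds (Col9a1 and Sox5; 6.01%). Its HL-to-FL log2 fold changes were -0.61 ± 0.23 in E11.5 mutant, -0.40 ± 0.23 in E11.5 WT, -0.59 ± 0.23 in E10.5 mutant and -0.83 ± 0.23 in E10.5 WT buds (adjusted p from 0.24 to 0.74). Without E10.5 mutant FL replicate 3 the E10.5 mutant values were -0.63 for Col9a1, -0.39 for Sox9, -0.20 for Col2a1 and 0.37 for Sox6. On the values as deposited the median over all genes was 0.45 in E10.5 and -0.44 in E11.5 mutant buds. On that scale the E10.5 mutant values were -0.15 for Col9a1, -0.05 for Sox9 and 0.29 for Col2a1. Sox6 was at 0.87 in E10.5 and -0.08 in E11.5 mutant buds, the latter against 0.33 on the rescaled values. The direction of Col2a1 at E10.5 and of Sox6 at E11.5 in mutant buds thus depended on the scale. Col9a1 stayed below 0 in all 4 groups on both scales. Col9a1 over Col2a1 within a library had a median of 0.497 in HL and 0.778 in FL of E11.5 mutant buds, 0.483 in HL and 0.743 in FL of E11.5 WT buds, 0.629 in HL and 0.948 in FL of E10.5 mutant buds, and 0.656 in HL and 1.25 in FL of E10.5 WT buds.

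Ordered by group mean, Sox6 was highest in E11.5 WT FL, at 7.30 rescaled TPM, and lowest in E10.5 WT FL, at 2.61, and the only neighbours without overlapping libraries were E11.5 mutant HL at 4.40 and E11.5 WT HL at 6.63. For Col2a1 that place was between E11.5 mutant FL at 12.4 and E10.5 WT HL at 6.03, so every E11.5 group stood above every E10.5 group. Sox9, highest in E11.5 WT HL at 3.73 and lowest in E10.5 mutant HL at 0.813, had no step without overlap, and the same held for Sox5, Hapln1 and Wwp2.

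The genes whose pattern lay nearest were found by the root mean square difference of centred log2 levels over the 24 libraries, among 5938 genes (5937 for Col2a1). For Sox9 they were Lxn, Gpc2, Plxnb1, Ldb2 and Wnt5a, at 0.24 to 0.25, with Sox5 at place 85 and a difference of 0.31. For Sox6 they were Fn1, Dhx9, Pot1a, Tbce and Chd6, at 0.27 to 0.30, with Sox5 at place 2281. For Col2a1 they were Tnrc18, P3h3, Hnrnpa2b1, Capn2 and Gm6793, at 0.25 to 0.34, with Sox9 at place 74. Hapln1 stood at places 5640, 5610 and 5659 for Sox9, Sox6 and Col2a1. A gene with a flat pattern would differ by 0.51 from Sox9, by 0.47 from Sox6 and by 0.79 from Col2a1. Sox5 differed from Sox6 by 0.49, more than a flat gene would. The libraries share stage and limb, so this describes likeness across these buds only.

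Other genes of the pathway are given for scale. Of 20 further cartilage matrix genes only Col11a1, Col27a1 and Lect1 were high enough to test. None of the 3 passed between genotypes at E11.5. At an unadjusted p under 0.05 limma gave 1 in HL (6.19% of all genes) and 0 in FL (22.7%). Lect1, for the cartilage protein chondromodulin, averaged 1.70 ± 0.88 in E11.5 WT HL and 1.71 ± 0.47 in E11.5 WT FL (SD, n = 3 each) and did not exceed 0.236 in any E10.5 library; it passed the filter on low values through its E11.5 libraries, so a rise was built into its being tested. With stage, Col11a1 rose by 0.46 ± 0.14 and Col27a1 by 0.48 ± 0.17 in WT HL, and neither passed on the values as deposited (-0.01 for Col11a1 and 0.09 for Col27a1). Among 20 genes of the condensation that precedes cartilage, 18 were tested and 1 passed between genotypes, Has2 in E11.5 FL (1.21% of all genes were called lower there). Has2, for a hyaluronan synthase, averaged 4.70 ± 0.59 in mutant and 8.45 ± 0.42 in WT E11.5 FL (SD, n = 3 each). It fell by 0.73 ± 0.11 (adjusted p = 0.0098 by limma), with -0.28 on the values as deposited. At an unadjusted p under 0.05 limma gave 3 of the 18 genes in E11.5 HL (6.19% of all genes) and 5 in FL (22.7%). None of 17 chondrogenic regulators and none of 15 matrix synthesis and sulfation genes tested passed between genotypes at E11.5. At an unadjusted p under 0.05 limma gave 2 of the regulators and 1 of the synthesis genes in HL (6.19% of all genes). In FL it gave 4 of the regulators and 8 of the synthesis genes (22.7% of all genes). With stage, of the 14 regulators kept at both stages 9 rose and 1 fell in mutant HL (18.5% of all genes rose and 17.8% fell), 9 rose and none fell in WT HL (23.8% rose), 7 rose and none fell in mutant FL (18.7% rose), and 7 rose and 1 fell in WT FL (23.3% rose and 16.8% fell). Their median change was 0.71 in mutant HL, 0.94 in WT HL, 0.67 in mutant FL and 0.71 in WT FL. Nfib, a regulator, rose by 1.22 ± 0.19 in mutant HL, 1.52 ± 0.19 in WT HL and 1.39 ± 0.19 in WT FL; on the values as deposited the mutant HL call was lost (0.57, adjusted p = 0.079).

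Marker lists of limb mesenchyme and of other cell types were set beside the Sox6 result in E11.5 FL. Among 14 limb mesenchyme markers 1 passed (1.21% of all genes were called lower), Pdgfra, which fell by 0.41 ± 0.09 (0.10 on the values as deposited). The summed level ran from 231 to 251 in mutant and from 236 to 265 in WT buds. Among 8 myogenic markers 7 were tested and 1 passed (0.447% of all genes were called higher), Lbx1, which rose by 0.57 ± 0.10. Surface ectoderm sums ran from 67.9 to 74.8 in mutant and from 77.7 to 97.6 in WT E11.5 FL, and neuronal sums from 12.9 to 16.6 in mutant and from 10.48 to 12.6 in WT, both without overlap. Myogenic sums ran from 11.2 to 34.9 in mutant and from 15.7 to 31.5 in WT E11.5 FL, endothelial sums from 32.2 to 39.1 in mutant and from 25.4 to 29.6 in WT, again without overlap, and erythroid sums from 2983 to 3629 in mutant and from 2269 to 4778 in WT. The part of these in the Sox6 value was not tested.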

How the data were processed

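Total RNA of 24 limb bud libraries, 3 in each of 8 groups of stage, genotype and limb, was analysed from the TPM values that the authors deposited, 1 per gene symbol, summing to 1000000 in each library. HISAT2 and mm10 are named in the submitters' processing notes; which program gave the TPM, with what annotation and strand setting, is not given in the sources used here. The E10.5 reads had 3 bases, per the labels, trimmed from the 3′ end. Depth cannot be had from TPM, and protein-coding genes held 13.6% to 32.8% of it. In E11.5 FL that share ran from 18.0% to 22.9% in mutant and from 14.7% to 17.3% in WT libraries, without overlap. The part of this in the E11.5 FL results was not tested.

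Each library was rescaled to an equal median log2 level over 3518 genes, and log2(rescaled TPM + 1) was fitted with limma 3.58.1 (R 4.3.3, empirical Bayes with a trend) over the 12 libraries of a stage, or all 24 for comparisons of stages. Genes needed 1 rescaled TPM in 3 libraries of the fit. Benjamini-Hochberg adjustment ran over all genes tested, with a threshold of 0.05. The procedure was tested on simulated data only for mutant against WT in FL, with changes placed in genes averaging above 5 rescaled TPM. Lower genes, such as Sox9, Col9a2 and Col9a3, and the other comparisons were not covered. Coordinates come from GENCODE M21, which matched 36217 of the 38019 symbols, and promoters from RefSeq.

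All members were reported. From each other list, up to 3 genes that passed, or the 2 highest where none passed, could be named. The members and lists were chosen with earlier results of these data known. Alternatives were values as deposited, rescaling within a stage, a pseudocount of 0.1, no filter, protein-coding genes only, only the groups compared, a replicate block, omission of libraries with high Xist, and each library left out. Replicate numbers met the criterion for pairing (every correlation of deviations over 0.1) only for HL against FL in E10.5 mutant buds, at 0.10, 0.18 and 0.19, with no member called with or without the block.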

Additional observations from a re-analysis of the deposited data

How the results depend on the processing

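Calls among the 10 genes were recomputed under each alternative. On the values as deposited, 0 members were called between genotypes in E11.5 FL (1 on rescaled values). Between the limbs of E11.5 mutant buds 2 were called on that scale, Col9a1 and Wwp2, both lower in HL (none on rescaled values). Of all 11126 genes tested in that comparison, 5112 were called lower in HL and 28 higher. Between the stages 4 members were called in WT FL on the deposited values (8 on rescaled values) and 5 in WT HL (8). These stage counts include Col9a2 and Col9a3, whose rise was built into their being tested; over the 7 genes kept at both stages the counts on deposited values were 2 in WT FL (6 on rescaled values), 4 in WT HL (6), 3 in mutant FL (3) and 2 in mutant HL (3, with none in common). With only the groups compared in the fit, the WT HL stage count was 5. With each library left out in turn, the stage count ran from 1 to 6 in mutant HL (3 with all libraries): 1 without E11.5 mutant HL replicate 1 and 6 without replicate 3; it ran from 3 to 5 in mutant FL, from 6 to 8 in WT FL and from 7 to 8 in WT HL (over the 7 genes, from 1 to 5 in mutant HL, 3 in mutant FL, from 4 to 6 in WT FL and 6 in WT HL), and the genotype count in E11.5 FL stayed at 1. With a replicate block 1 member, Sox6, was called in E11.5 FL (adjusted p = 0.0071), and the stage counts were 4 in mutant HL, 8 in WT HL, 4 in mutant FL and 7 in WT FL. Over all genes, the E11.5 FL genotype count was 189, against 95 with the replicate block, 59 with no filter, 36 with only the groups compared, 83 without the libraries with high Xist and 27 to 385 with 1 library left out. The replicate block moved the count over all genes from 7 to 12 for HL against FL in E10.5 mutant buds. No called value of the 10 genes on the rescaled scale took the other sign under any of these alternatives; the cause of each lost call was not tested. With 3 libraries a group and TPM without counts, small differences of genes near 1 TPM, such as Sox9, Col9a2 and Col9a3, cannot be resolved.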
